A study of Mus musculus with 24 samples.

Results

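The unfolded protein response and the integrated stress response were described here through 10 genes picked by name from the 24614 genes of the count table: the chaperones Hspa5, Hsp90b1 and Dnajb9, the degradation factor Herpud1, the transcription factors Xbp1, Ddit3 and Atf4, and the ATF4-driven genes Chac1, Trib3 and Asns. The genes were chosen with earlier results of these data known. Each gene was found once, and all 10 were among the 11698 genes that passed the filter on low counts. The main differences were these. Herpud1 fell after interferon beta in both lines with an intact receptor. Xbp1 and Ddit3 fell in the vector control line and Asns in untransfected cells, and the test of the response between these lines called none of them. The Ddit3 call was lost in 7 of 14 other settings of the analysis and the Asns call in 3 of 14. Untreated cells of the vector control line had more Chac1, Trib3 and Atf4 and less Hsp90b1 and Xbp1 than untransfected cells. That call of Trib3 was lost in 4 of 14 other settings. Also untreated, 1 of 2 receptor knockout clones had less Hsp90b1, Xbp1, Herpud1, Dnajb9 and Hspa5 than untransfected cells. In that clone the Hspa5 call was lost in 6 of 14 other settings and the Dnajb9 call in 4 of 13. The other clone had less Xbp1, a call lost without any 1 of the 6 libraries compared.

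As background, unfolded protein in the endoplasmic reticulum (ER) is sensed by IRE1, ATF6 and PERK. IRE1 splices the mRNA of Xbp1 into one that encodes an active transcription factor, cleaved ATF6 enters the nucleus, and both raise ER chaperones and ER-associated degradation (ERAD), which returns misfolded protein to the cytosol for destruction. PERK phosphorylates the translation factor eIF2, as do the kinases GCN2 (amino acid shortage), HRI (haem shortage) and PKR (double-stranded RNA). That shared branch, the integrated stress response, lowers overall translation and favours translation of ATF4, which drives genes of amino acid supply and, with prolonged stress, Ddit3 (CHOP). Type I interferons act through the receptor chains IFNAR1 and IFNAR2, and PKR, encoded by Eif2ak2, is itself an interferon-stimulated gene.

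The cells were ID8, a mouse ovarian cancer line derived from ovarian surface epithelium, and every group carried the knockout of Trp53 and Brca2 that the labels give. The 4 lines were untransfected ID8 (WT, a name that refers to the receptor alone), cells given an empty CRISPR vector (EV), and 1CF10 and 2CD7, each a single clone with a CRISPR knockout of Ifnar1. Each line was left untreated (UT) or exposed for 3 h to 10000 IU/ml of recombinant murine interferon beta (IFN beta), with 3 libraries in each of the 8 groups. The labels call them technical replicates and date their treatment to a single day, so the p-values measure the spread between such libraries and each line stands for itself.

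RNA was read as tags near the 3′ end of transcripts, and each tag carried a unique molecular identifier (UMI) so that molecules were counted. The 24 libraries held 1972192 to 3097331 UMIs. Levels are given as CPM, the UMI counts of a library scaled to a total of 1000000, and differences as log2 values ± SE from a model of all tested genes with libraries scaled by TMM. A gene was called where the Benjamini-Hochberg adjusted p of edgeR's quasi-likelihood test was below 0.05. Treated 1CF10 library 3 stood apart: its chi-square against the other 2 libraries of its group was 4.55 and 3.57 per gene, where other pairs gave at most 2.66, and for the treated comparisons that use it the member counts are also given without it. Of 8 epithelial and mesothelial markers 7 were tested, with a summed level of 2430 to 4100 CPM per library, while Krt7 stayed between 0 and 0.907 CPM. The leukocyte markers in the table summed to 0.76 to 4.54 CPM and the endothelial ones to 0 to 1.52 CPM, and none of them was tested. Ifnar1 tags were still present in both clones, at 8.90 ± 2.62 CPM in untreated 1CF10 and 7.39 ± 2.71 in untreated 2CD7 against 11.5 ± 4.50 in WT and 11.9 ± 0.993 in EV (SD, n = 3), and a 3′ tag does not check a CRISPR edit elsewhere in the gene. In cultures measured in bulk, fewer expressing cells and less RNA per cell cannot be told apart.

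Promoter sequence is shown for 5 of the genes whose windows hold elements through which the ER stress branches and ATF4 are known to act, both kinds in Herpud1. Trib3, with a match that lies after the start, is not shown. Windows from 250 bases before to 50 bases after the annotated start were taken from RefSeq on GRCm38.p6, where 10 of 10 genes matched, and both strands were searched. Capitals mark the matches, and positions count from the RefSeq start. For Hspa5 and Asns the GENCODE M21 annotation places the start further upstream, so the stretches shown lie within those annotated genes. In Herpud1 (chr8:94386289-94386408, plus strand) they mark an amino acid response element at -112 to -105 and an ERSE-II element at -52 to -42. In Hspa5 (chr2:34772020-34772049, plus strand) they mark an ER stress element (ERSE) at -65 to -47. In Hsp90b1 (chr10:86705525-86705664, minus strand) they mark an ERSE at -212 to -194 and another on the opposite strand at -107 to -89. In Chac1 (chr2:119351022-119351081, plus strand) and Asns (chr6:7693214-7693243, minus strand) they mark amino acid response elements at -193 to -186 and -23 to -16.
Herpud1: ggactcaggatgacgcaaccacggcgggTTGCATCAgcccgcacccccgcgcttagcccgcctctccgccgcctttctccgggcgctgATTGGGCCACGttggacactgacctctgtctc
Hspa5: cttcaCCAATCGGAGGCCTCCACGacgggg
Hsp90b1: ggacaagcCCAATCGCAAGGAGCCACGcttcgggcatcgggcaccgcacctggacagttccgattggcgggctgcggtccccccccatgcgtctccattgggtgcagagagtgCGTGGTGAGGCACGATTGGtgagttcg
Chac1: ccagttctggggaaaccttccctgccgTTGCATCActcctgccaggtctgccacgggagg
Asns: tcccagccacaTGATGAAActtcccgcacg

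The ERSE, searched as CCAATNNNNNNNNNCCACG, was in 39 of 32851 mouse promoter windows (0.119%), Hspa5 and Hsp90b1 among them. The ERSE-II, ATTGGNCCACG, was in 12 windows (0.0365%), and Herpud1 was the member that held it. The amino acid response element to which ATF4 with a C/EBP partner binds, TGATGNAA, was in 1304 windows (3.97%) and in 4 members, namely Herpud1, Chac1, Asns and Trib3, the last at 15 to 22 bases after the start. The ERSE and ERSE-II letters share CCACG, and no Herpud1 match counts under both. The element TGACGTGG, known for binding XBP1, was in 222 windows (0.676%) and in 0 members. The interferon-stimulated response element, GAAANNGAAA, was in 1131 windows (3.44%) and in 0 members, which says only that these letters are not in these windows.

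Herpud1 encodes an ER membrane protein that assembles the ERAD machinery, and it lies on chromosome 8 (94386438 to 94395377, plus strand, GENCODE M21 on GRCm38). In untreated WT its level was 117, 102 and 82.5 CPM, and after IFN beta it was 79.4, 55.6 and 46.8 CPM. In EV it was 103, 84.0 and 89.1 CPM untreated and 49.8, 46.9 and 53.8 CPM treated. No treated library of either line reached the lowest untreated one. Herpud1 fell by 0.67 ± 0.14 on the log2 scale in WT (ratio 0.627, adjusted p = 0.0011) and by 0.84 ± 0.15 in EV (ratio 0.560, adjusted p = 0.000115). In 1CF10 it was 75.8, 56.8 and 53.6 CPM untreated and 67.0, 65.7 and 60.1 CPM treated. In 2CD7 it was 93.8, 93.6 and 102 CPM untreated and 98.7, 102 and 90.3 CPM treated. Treated and untreated libraries overlapped in both clones, with differences of 0.05 ± 0.15 and 0.01 ± 0.13 (adjusted p = 0.998 and 1.0). The response of the clones minus that of the controls was 0.78 ± 0.14 (adjusted p = 0.000232). When WT was fitted without the other lines, its adjusted p was 0.136 (range 6.65e-08 to 0.136 over 14 other settings), and the call in EV held in each of 14.

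Taken over all groups, the Herpud1 levels were sorted into a lower and a higher set after they were seen. The sets nearly met, at 79.4 and 82.5 CPM, both in WT libraries. The SD there was 16.9 CPM treated and 17.4 CPM untreated (n = 3). Treated EV, treated WT and both 1CF10 groups had library values of at most 79.4 CPM, with means of 50.2 to 64.3. Untreated EV, untreated WT and both 2CD7 groups had values of at least 82.5 CPM, with means of 92.1 to 101. Within the lower set, treated EV and treated WT differed by -0.28 ± 0.15 (adjusted p = 0.219) and treated 1CF10 and treated WT by -0.01 ± 0.15 (adjusted p = 0.984). Untreated 1CF10 stood at -0.73 ± 0.14 against untreated WT (adjusted p = 0.000214) and -0.61 ± 0.14 against untreated EV (adjusted p = 0.00279).

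Xbp1 (chromosome 11, 5520659 to 5525893, plus strand) encodes the factor made active by IRE1, and 3′ tags do not separate its spliced from its unspliced mRNA. Untreated EV had 91.1, 78.3 and 80.5 CPM and treated EV 58.4, 62.9 and 53.4 CPM, with no overlap. Xbp1 fell there by 0.47 ± 0.10 (ratio 0.721, adjusted p = 0.000821). The WT libraries did not overlap either, at 136, 117 and 110.4 CPM untreated and 109, 102 and 98.1 CPM treated, but the difference of -0.18 ± 0.09 did not pass (adjusted p = 0.285). In 1CF10 all treated values (83.0, 86.9 and 82.5 CPM) lay above the untreated ones (72.3, 72.9 and 80.7 CPM), at 0.14 ± 0.10 (adjusted p = 0.998). In 2CD7 the level was 99.97, 101 and 93.1 CPM untreated and 96.5, 108 and 102 CPM treated. The clones' response minus the controls' was 0.42 ± 0.10 (adjusted p = 0.00175), a call kept in each of 31 other settings, while EV minus WT was -0.29 ± 0.14 (adjusted p = 0.698).

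Ddit3, which encodes the proapoptotic factor CHOP, was lowest in treated EV. That group had 10.6, 10.6 and 12.0 CPM, below all 21 libraries of the other groups, and untreated EV had 18.1, 15.0 and 24.0 CPM. In WT the values were 25.0, 13.7 and 15.5 CPM untreated and 22.4, 24.3 and 20.8 CPM treated. Ddit3 fell by 0.74 ± 0.22 in EV (ratio 0.597, adjusted p = 0.0272), and in WT the difference was 0.37 ± 0.19 (adjusted p = 0.326), which passed without untreated WT library 1 (0.68, adjusted p 0.0432 to 0.683 over 14 other settings). EV minus WT was -1.11 ± 0.29 (adjusted p = 0.163, and 0.026 to 0.497 over 19 other settings), and it passed without untreated WT library 1, at -1.42, and with no filter on low counts. The fall in EV was lost in 7 of 14 other settings (adjusted p 0.0122 to 0.273), among them DESeq2, limma-voom, thinning and leaving out treated EV library 1, 2 or 3 (-0.72, -0.71 and -0.80) or untreated EV library 3 (-0.54, adjusted p = 0.273). In the clones the values were 14.3 to 21.3 CPM in 1CF10 and 16.9 to 26.3 CPM in 2CD7, overlapping between treatments. Ddit3 (chromosome 10, 127290774 to 127296288, plus strand) shares its last 68 bases with the opposite-strand end of Mars1, a tRNA synthetase gene with 114 to 195 UMIs per library whose own difference in EV was 0.09 ± 0.11 (adjusted p = 0.807), and no source used here says whether counting used strand.

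Asns, which makes asparagine and is a classic ATF4 target (chromosome 6, 7675169 to 7693254, minus strand), was lowest in treated WT. There it was 142, 143 and 122 CPM against 198, 164 and 156 CPM untreated, and every library outside that group was at 156 CPM or more. It fell by 0.30 ± 0.085 (ratio 0.814, adjusted p = 0.0174). The call was lost in 3 of 14 other settings (adjusted p 0.00897 to 0.377): with DESeq2, without treated WT library 3 (-0.22, adjusted p = 0.240) and without untreated WT library 1 (-0.17, adjusted p = 0.377). In EV the values were 189.9, 204 and 197 CPM untreated and 179.7, 176 and 181 CPM treated, a difference of -0.10 ± 0.08 (adjusted p = 0.678).

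**Figure D1:**
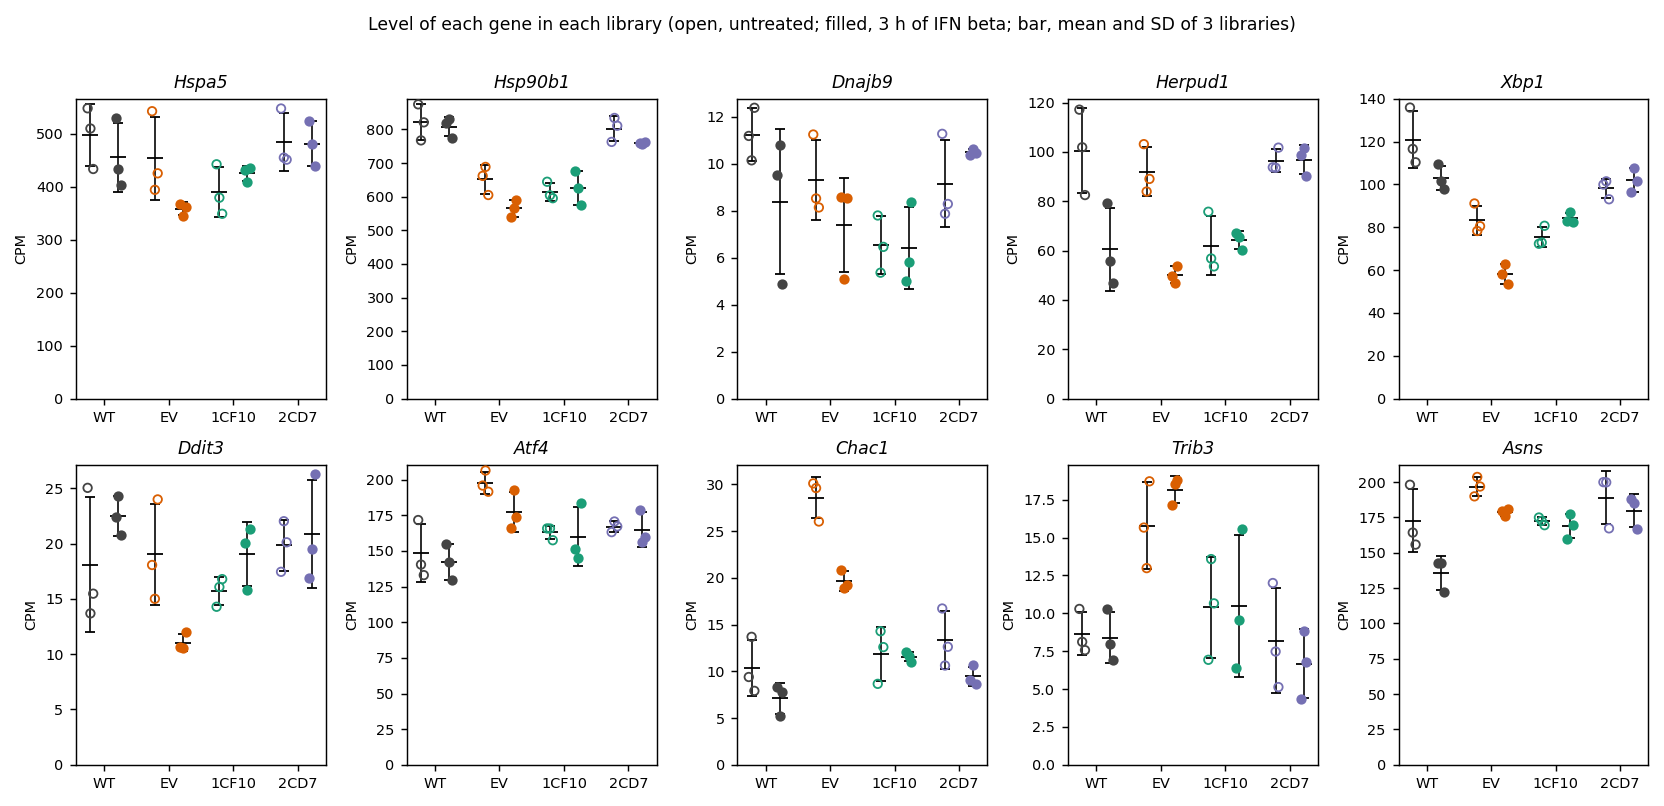
Level of each of the 10 genes in CPM (vertical axes, linear, scaled by gene) in the 24 libraries, with open points for untreated and filled points for IFN beta and bars for the mean ± SD (n = 3). Herpud1 lies between 46.8 and 79.4 CPM in both treated control groups and both 1CF10 groups and at 82.5 CPM or more elsewhere, and Chac1 is highest in EV.

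The 3 chaperones gave no call for IFN beta in any line. Hspa5 (BiP, the main ER chaperone, chromosome 2, 34771970 to 34777547, plus strand) was 543, 394 and 425 CPM in untreated EV and 368, 345 and 362 CPM in treated EV. Those libraries did not overlap, and the difference was -0.30 ± 0.13 (adjusted p = 0.283). It passed with no filter on low counts (adjusted p = 0.0282) and with the replicate number as a block (adjusted p = 0.00224), and reached 0.722 at most over 14 other settings. Hsp90b1 (GRP94, the ER member of the HSP90 family) differed by -0.16 ± 0.06 in EV (adjusted p = 0.162) and by 0.02 ± 0.06 in WT (adjusted p = 0.923). Dnajb9 (ERdj4, a co-chaperone of BiP) was low, at 4.89 to 12.4 CPM over all libraries, and differed by -0.30 ± 0.28 in EV and -0.37 ± 0.26 in WT (adjusted p = 0.716 and 0.516).

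Atf4, Chac1 and Trib3 gave no call for IFN beta either. Chac1, a glutathione-degrading enzyme, was 30.1, 29.6 and 26.0 CPM in untreated EV and 20.8, 18.9 and 19.2 CPM in treated EV, without overlap. Its difference was -0.50 ± 0.18 in EV (adjusted p = 0.099), -0.46 ± 0.26 in WT (adjusted p = 0.388) and -0.49 ± 0.23 in 2CD7 (adjusted p = 0.997). Atf4 differed by -0.11 ± 0.08 in EV and -0.01 ± 0.09 in WT, and Trib3, a pseudokinase that restrains AKT and ATF4 itself, by 0.24 ± 0.23 and 0.01 ± 0.30, with adjusted p of 0.608 to 0.989.

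Counted over the members, IFN beta lowered 2 of 10 in WT and 3 of 10 in EV and raised none. Of all tested genes 6.85% and 5.09% were called in either direction, and 1.84% and 1.1% were called lower. Members and pathway lists were chosen with earlier results of these data known. Counts above the shares of all genes, here and below, are thus no test of the pathway. In EV 9 of 10 members were below 0, with a median of -0.302 against -0.00638 over all tested genes, and in WT 7 of 10, with a median of -0.133 against -0.0219. In 1CF10 and in 2CD7 0 members were called with edgeR (0.0% of all genes in each), 0 and 1 had an unadjusted p below 0.05, the medians were -0.014 and -0.0189, and DESeq2 and limma-voom also gave 0. Over all genes 485 and 510 had an unadjusted p below 0.05 in those clones. In the test of responses, 2 members were higher in the clones than in the controls (5.24% of all genes called), 0 differed between EV and WT (0.0427% called, 3 members at an unadjusted p below 0.05) and 0 between 2CD7 and 1CF10 (0.0% called, 0 members and 474 genes at an unadjusted p below 0.05). For those last comparisons DESeq2 and limma-voom gave 0 members as well. Without treated 1CF10 library 3 the counts were 0 in 1CF10 and 2 for clones against controls. Herpud1 passed in both controls, Xbp1 and Ddit3 in EV, and Asns in WT, and the test of EV against WT called none of the 4.

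**Figure D2:**
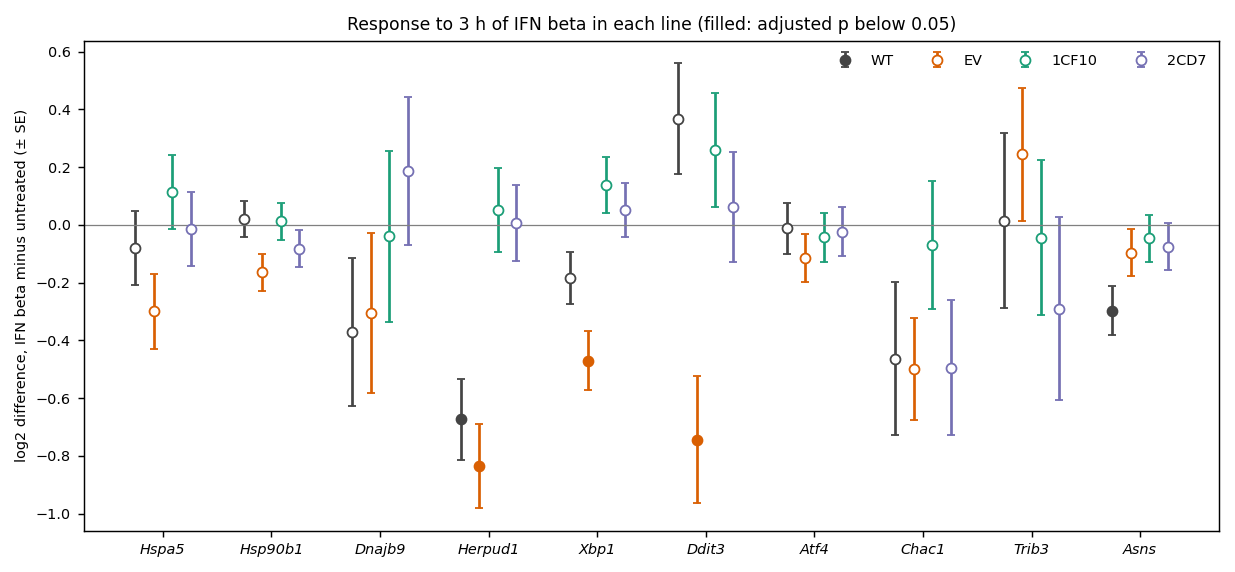
Log2 response to IFN beta (vertical axis, treated minus untreated, ± SE) of the 10 genes in each of the 4 lines, filled where the adjusted p was below 0.05. Filled points are Herpud1 and Asns in WT and Herpud1, Xbp1 and Ddit3 in EV, all below 0, and none in the clones.

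Few of the other pathway genes were called after IFN beta. Over 116 tested genes from 9 lists, WT showed 6 that rose and 4 that fell (8.62%, against 6.85% of all genes), and EV 3 and 1 (3.45%, against 5.09%), shares near those of all genes. Without treated WT library 2 the falls in WT were 2. Eif2ak2, the gene of PKR, rose from 48.4 ± 17.1 to 273 ± 24.4 CPM in WT (2.55 ± 0.19) and from 46.6 ± 11.3 to 257 ± 32.7 CPM in EV (2.50 ± 0.19; SD, n = 3). Jdp2, a repressor of AP-1 and CRE sites, rose by 0.91 ± 0.17 in WT and 0.65 ± 0.17 in EV. Edem3, a mannosidase that marks glycoproteins for ERAD, rose by 0.55 ± 0.17 and 0.71 ± 0.18. The Edem3 call was lost without treated WT library 1 or untreated WT library 1 or 2 or with DESeq2 or no filter (adjusted p up to 0.173) and without treated EV library 1 or untreated EV library 2 (up to 0.0668), and that of Jdp2 in EV without untreated EV library 3 (0.055). In WT Atf3, a stress-induced repressor, rose by 1.26 ± 0.27 (5.99 ± 0.837 to 14.0 ± 1.03 CPM), and Cebpb, a dimer partner of ATF4, by 0.45 ± 0.10.

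Among genes that fell in WT, Ddit4, an inhibitor of mTORC1, dropped by 1.00 ± 0.19 (30.9 ± 2.11 to 14.9 ± 2.59 CPM). Mthfd2, an enzyme of mitochondrial folate metabolism, fell by 0.40 ± 0.095, a call lost without treated WT library 2 (adjusted p = 0.159). Ssr1, a subunit of the translocon-associated complex, fell by 0.34 ± 0.077. In EV the gene that fell was Creb3l2, a membrane-bound ER stress factor, at -0.42 ± 0.13, lost in 7 of 14 other settings, among them leaving out treated EV library 2 or 3 or untreated EV library 1 or 3 (adjusted p up to 0.177). Of 18 ER chaperones and folding enzymes beyond the members 0 were called in WT or EV (2 in each at an unadjusted p below 0.05), with medians of -0.0514 and -0.0595. Of 13 tRNA synthetases 0 were called (2 and 3 at an unadjusted p below 0.05). DESeq2 and limma-voom called 0 in both lists too, and 1 chaperone was called in WT when it was fitted alone or with no filter, and 2 synthetases in EV fitted alone.

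Between untreated lines, the EV cells differed from WT in 5 of 10 members, 3 higher and 2 lower, where 14.1% of all tested genes were called (814 higher and 835 lower). Chac1 was 9.39, 13.7 and 7.91 CPM in WT against the 26.0 to 30.1 CPM of EV given above, a difference of 1.51 ± 0.20 (2.84-fold, adjusted p = 5.2e-08). Atf4 (chromosome 15, 80255184 to 80257541, plus strand) was 172, 140.4 and 133 CPM in WT libraries and 196, 206 and 192 CPM in those of EV, at 0.42 ± 0.086 (adjusted p = 0.000209). Trib3 was 10.3, 8.11 and 7.57 CPM in WT against 15.7, 13.0 and 18.7 CPM in EV, at 0.87 ± 0.27 (adjusted p = 0.0204). For these genes the libraries of the lines did not overlap. The share of all tested genes without overlap is not given here, so this adds nothing to the calls. The Trib3 call was lost in 4 of 14 other settings (adjusted p 0.00824 to 0.119): with DESeq2, and without untreated EV library 3 (0.73), untreated WT library 2 (0.85) or untreated WT library 3 (0.78).

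The 2 members that were lower in EV belong to the ER arm. Hsp90b1 (chromosome 10, 86690209 to 86705509, minus strand) was 874, 767 and 821 CPM in WT against 662, 688 and 605 CPM in EV, at -0.33 ± 0.063 (adjusted p = 6.77e-05). Xbp1 differed by -0.53 ± 0.094 (adjusted p = 1.72e-05), with the values given above. Hspa5 differed by -0.13 ± 0.13 (adjusted p = 0.588). The annotated Hsp90b1 gene overlaps 1810014B01Rik on the opposite strand, which had 6 to 26 UMIs per library.

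The same comparison after IFN beta called 7 of 10 members, 4 higher and 3 lower (19.2% of all genes called). Chac1 was 8.36, 5.22 and 7.74 CPM in treated WT, and EV was higher by 1.47 ± 0.23 (2.77-fold, adjusted p = 1.05e-06). Trib3 was 10.3, 8.00 and 6.92 CPM in WT against 17.2, 18.6 and 18.8 CPM in EV (2.15-fold, adjusted p = 0.00108). Asns, at 0.19 ± 0.083 in untreated cells (adjusted p = 0.115, called at 0.32 without untreated WT library 1), was higher by 0.39 ± 0.084 (adjusted p = 0.000334) and Atf4 by 0.32 ± 0.086 (adjusted p = 0.00502). The Atf4 call was lost without treated EV library 2 (0.25, adjusted p = 0.0675) or treated WT library 3 (0.26, adjusted p = 0.057), with a range of 0.00152 to 0.0675 over 14 other settings. Lower in EV were Xbp1 (-0.82 ± 0.099, adjusted p = 2.29e-09), Hsp90b1 (-0.52 ± 0.064, adjusted p = 3.77e-09) and Ddit3 (-1.03 ± 0.21, adjusted p = 0.000148). Hspa5 was at 529, 433 and 404 CPM in treated WT, above all treated EV values, and the difference of -0.35 ± 0.13 missed the threshold (adjusted p = 0.0707), while 6 of 14 other settings gave a call (adjusted p 0.000108 to 0.261): DESeq2, limma-voom, no filter, the replicate block, the compared groups alone and leaving out treated WT library 3. Without that library Herpud1 was called too, at -0.42 (adjusted p = 0.0435, and up to 0.888 in the other settings).

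**Figure D3:**
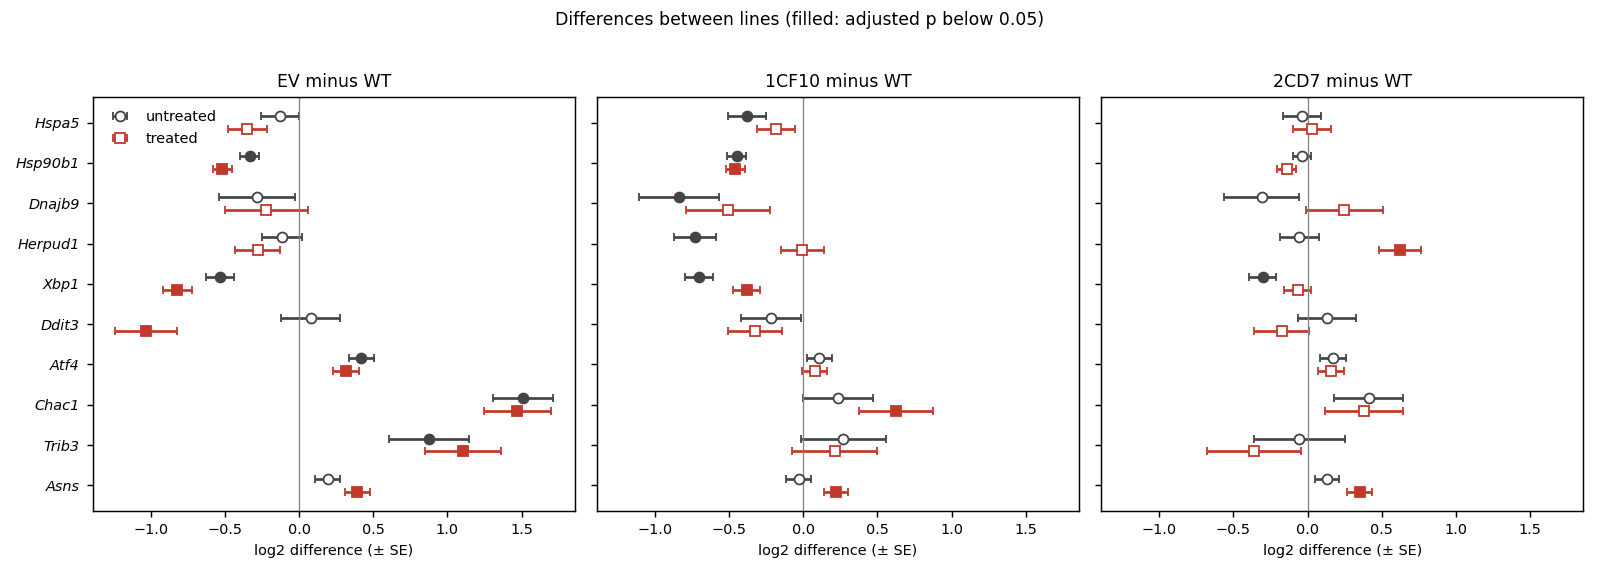
Log2 differences from WT (horizontal axes, ± SE) of the 10 genes in EV, 1CF10 and 2CD7, with circles for untreated and squares for treated libraries, filled where the adjusted p was below 0.05. All 3 panels share the WT libraries. In EV, Chac1 and Trib3 lie to the right of 0 and Xbp1 and Hsp90b1 to the left under both conditions, and in untreated 1CF10 the 5 filled points are all to the left.

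In EV against WT, chaperone and ERAD genes had calls in the lower direction and synthetase genes in the higher one, both untreated and treated, in separate libraries. The stress transcription factors and the genes of stress and growth control gave other counts under each condition. Untreated, 17 of 116 genes were higher and 19 lower (31.0%, against 14.1% of all genes), 12 lower without untreated WT library 2 and 10 higher without untreated WT library 3. Of 18 ER chaperones and folding enzymes 8 were lower and 0 higher (median -0.228), with Dnajc3, an inhibitor of PERK that also serves as a BiP co-chaperone, at 121 ± 3.86 against 164 ± 7.46 CPM (-0.44 ± 0.088, adjusted p = 0.000139). Of 17 ERAD genes 4 were lower, among them Erlec1, a lectin, at 18.7 ± 2.40 against 33.9 ± 6.65 CPM (-0.87 ± 0.17). Of 17 genes of amino acid synthesis and transport 6 were higher and 0 lower (median 0.332). Slc1a5, a glutamine transporter, was at 59.0 ± 7.04 against 37.1 ± 3.99 CPM (0.65 ± 0.13), and Slc7a1, a transporter of cationic amino acids, at 130.9 ± 8.02 against 92.2 ± 4.56 CPM (0.50 ± 0.097). Of 13 tRNA synthetases 7 were higher and 0 lower (median 0.228), led by Nars (0.71 ± 0.13) and Lars (0.58 ± 0.090). Of 12 cytosolic heat shock genes 4 were higher, Hsp90aa1 among them (0.42 ± 0.064).

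Single libraries moved these counts. The 8 lower chaperones became 4 without untreated EV library 2 and 5 without untreated WT library 2 or 3. The 7 synthetases became 4 without untreated WT library 3 and 4 with thinned counts, and the 4 ERAD genes became 2 without untreated WT library 1. The 6 amino acid genes became 4, with 1 lower, without untreated WT library 3.

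Not all ATF4-linked genes were higher in untreated EV. Of 10 tested genes of stress and growth control 4 were lower and 0 higher, 2 of them without untreated EV library 2 or untreated WT library 2. Nupr1, a stress-induced chromatin protein, was at 265 ± 23.5 CPM against 499 ± 21.6 CPM in WT (-0.91 ± 0.12, adjusted p = 3.28e-05). Gadd45a, a growth arrest gene, was at -0.83 ± 0.24 and lost its call without untreated EV library 1 or 2 or untreated WT library 2 or 3 (adjusted p up to 0.126). Of 10 stress transcription factors 3 were higher (Nfe2l2, Atf3 and Atf5) and 1 lower (Creb3). Atf3 was higher by 1.22 ± 0.27 and Atf5, another factor translated like ATF4, by 0.68 ± 0.19, the latter lost without untreated EV library 1 or untreated WT library 3 (up to 0.0706).

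After IFN beta, 21 pathway genes were higher and 20 lower in EV (35.3%, against 19.2% of all genes). Chaperones were again 8 lower and 0 higher (median -0.204), which became 5 lower without treated EV library 2 or 3 or treated WT library 1. Dnajc3 was at -0.69 ± 0.088 and Calr, the lectin chaperone calreticulin, at -0.57 ± 0.10. Amino acid genes were 7 higher and 1 lower (median 0.301) and synthetases 8 higher and 0 lower (median 0.252), the latter 4 without treated EV library 3 and 5 without treated WT library 2 or 3 or with no filter. Nars was at 0.71 ± 0.13 and Mars1, the antisense neighbour of Ddit3, at 0.49 ± 0.11, opposite in sign to Ddit3 in this comparison. Stress transcription factors were 0 higher and 2 lower (Nfe2l1 and Creb3l2), 1 lower without treated EV library 2 or 3 or treated WT library 1 or 2 or with DESeq2. Genes of stress and growth control were 2 higher (Sesn2 and Eif4ebp1) and 2 lower (Sqstm1 and Nupr1, the latter at -1.12 ± 0.12). Those higher became 1 without treated EV library 1 or 3 or treated WT library 1 or with DESeq2, no filter or a minimum count of 30, and 0 without treated EV library 2 or treated WT library 3. The test of EV minus WT in the response called 0 genes of both lists by edgeR, DESeq2 and limma-voom (3 and 2 at an unadjusted p below 0.05).

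Clone 1CF10, untreated, was lower than untreated WT in 5 of 10 members and higher in none, where 19.2% of all tested genes were called and 11.0% were lower. Hsp90b1 was 644, 604 and 595 CPM, each below all WT libraries (-0.45 ± 0.063, adjusted p = 1.15e-07). Xbp1 differed by -0.71 ± 0.094 (ratio 0.613, adjusted p = 2.73e-08), and the Herpud1 difference is given above. Hspa5 was 443, 379 and 349 CPM against 548, 510.1 and 434 CPM in WT, with overlap (-0.38 ± 0.13, adjusted p = 0.0468). That call was lost in 6 of 14 other settings (adjusted p 1.3e-05 to 0.177): with RLE size factors, thinned, and without untreated 1CF10 library 2 or 3 or untreated WT library 1 or 2 (-0.29 to -0.37). Atf4, Chac1, Trib3 and Asns differed by 0.11 ± 0.09, 0.23 ± 0.24, 0.27 ± 0.29 and -0.03 ± 0.08, with adjusted p of 0.432 to 0.857.

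Dnajb9 was 7.79, 5.36 and 6.46 CPM in untreated 1CF10 and 11.2, 10.1 and 12.4 CPM in untreated WT, without overlap (-0.84 ± 0.27, adjusted p = 0.0205). It was lost with DESeq2 and without untreated 1CF10 library 2 (-0.72) or 3 (-0.83) or untreated WT library 3 (-0.74), with adjusted p of 0.0193 to 0.113 over 13 other settings. The gene lies on chromosome 12 (44205559 to 44210326, minus strand), and the 229 genes of that chromosome with an average log2 CPM above 4 had a median of -0.311 in the same comparison, against 0.00595 over all such genes. Treated, that median was -0.301 and Dnajb9 stood at -0.51 ± 0.28 (adjusted p = 0.173), called without treated WT library 3 (-0.77, with adjusted p of 0.039 to 0.576 over 13 other settings). The part of the chromosome-wide shift in the Dnajb9 difference was not tested.

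The comparisons of the clones with EV share the EV libraries. Untreated 1CF10 was lower in 3 of 10 (10.4% of all genes called): Chac1, at 8.66, 14.3 and 12.6 CPM (ratio 0.413, adjusted p = 7.2e-07), Atf4 at -0.31 ± 0.084 (adjusted p = 0.00799) and Herpud1. Untreated 2CD7 was lower in 3 and higher in 1 (8.86% called). Chac1 was 16.7, 10.6 and 12.6 CPM there (ratio 0.468, adjusted p = 1.5e-05), Trib3 was 12.0, 7.47 and 5.13 CPM (-0.93 ± 0.27, adjusted p = 0.0162), Atf4 was at -0.25 ± 0.084 (adjusted p = 0.0484), and Hsp90b1 was higher by 0.29 ± 0.063 (adjusted p = 0.000629). Atf4 in 1CF10 lost its call without untreated 1CF10 library 3 or untreated EV library 2 (up to 0.0583), and in 2CD7 in 11 of 14 other settings, each of the 6 libraries among them (0.0184 to 0.198). Trib3 in 2CD7 lost it when thinned and without untreated 2CD7 library 2 or 3 or untreated EV library 3 (-0.86, -0.68 and -0.79, up to 0.158).

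The treated clones differed from treated EV in more members, and the share of all tested genes called was higher too. That share was 10.4% untreated and 18.9% treated in 1CF10, and 8.86% and 15.5% in 2CD7. In 1CF10, Xbp1 (0.44 ± 0.10) and Ddit3 (0.71 ± 0.22) were higher and Chac1 (-0.85 ± 0.20), Trib3 (-0.89 ± 0.25) and Atf4 (-0.24 ± 0.085) lower, 5 of 10 where 18.9% of all genes were called, and 4 without treated 1CF10 library 3. Of these, Atf4 was lost in 7 of 14 other settings, among them without treated 1CF10 library 1 or 2 or treated EV library 2 or 3 (adjusted p up to 0.205). Ddit3 was lost without treated 1CF10 library 1 or 3 or treated EV library 2 (0.65, 0.64 and 0.66, up to 0.0615) and Trib3 without treated 1CF10 library 1 (-0.62, 0.0838). In 2CD7, Hsp90b1 (0.38 ± 0.064), Herpud1 (0.90 ± 0.15), Xbp1 (0.75 ± 0.10) and Ddit3 (0.86 ± 0.22) were higher and Chac1 (-1.09 ± 0.22) and Trib3 (-1.46 ± 0.27) lower, 6 of 10 where 15.5% of all genes were called, each kept in all 14 other settings. Hspa5 stood at 0.38 ± 0.13 (adjusted p = 0.0589) and passed in 6 of 14 other settings (1.84e-05 to 0.186), among them without treated 2CD7 library 3. Chac1 in these libraries was 12.1, 11.6 and 11.0 CPM in 1CF10 and 9.09, 10.6 and 8.62 CPM in 2CD7, and EV had the highest Chac1 of the 4 lines under both conditions.

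Clone 2CD7 gave few calls against WT. Untreated, 1 of 10 was called (3.51% of all genes), Xbp1 at -0.30 ± 0.092 (adjusted p = 0.0484), a call lost in 10 of 14 other settings, each of the 6 libraries among them (-0.19 to -0.36, adjusted p 0.0414 to 0.356). Its Hsp90b1 was 763, 834 and 811 CPM, at -0.04 ± 0.06 from WT (adjusted p = 0.837). Treated, 2 of 10 were higher (14.0% of all genes called), Herpud1 by 0.62 ± 0.14 (adjusted p = 0.00171) and Asns by 0.35 ± 0.084 (adjusted p = 0.00169). The treated WT libraries in that comparison are those in which the same genes fell after IFN beta. Treated 1CF10 differed from treated WT in 4 of 10 (32.0% called): Hsp90b1 (-0.46 ± 0.063) and Xbp1 (-0.38 ± 0.093) were lower, and Chac1 (0.63 ± 0.25) and Asns (0.22 ± 0.084) higher. Those last calls were lost in 10 and 7 of 14 other settings (adjusted p up to 0.276 and 0.279), and without treated 1CF10 library 3 the count was 2.

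The clones also differed from each other. Untreated, 3 of 10 members were higher in 2CD7 and 0 lower (13.4% of all genes called): Hsp90b1 (0.41 ± 0.063), Herpud1 (0.67 ± 0.14) and Xbp1 (0.40 ± 0.095), each kept in 14 of 14 other settings. Hspa5 stood at 0.34 ± 0.13 (adjusted p = 0.0938) and passed in 6 of 14 other settings (0.000112 to 0.281), among them without untreated 1CF10 library 1 (0.44). Treated, the same 3 were called (15.2% of all genes), at 0.32 ± 0.063, 0.63 ± 0.14 and 0.32 ± 0.094. Without treated 1CF10 library 3 the count was also 3, with Dnajb9 called and Xbp1 not. Xbp1 was then lost without treated 1CF10 library 3 (0.29) or treated 2CD7 library 2 (0.28) and with the 2 groups alone (adjusted p up to 0.0849). Treated Dnajb9 stood at 0.75 ± 0.27 (adjusted p = 0.0517), passing with the replicate block and without treated 1CF10 library 3 (0.97, adjusted p 0.029 to 0.209 over 13 other settings), and the median of chromosome 12 was 0.297. Over both conditions, Hsp90b1 was between 539 and 688 CPM in all 12 libraries of EV and 1CF10 and between 758 and 874 CPM in all 12 of WT and 2CD7.

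In untreated 1CF10 against WT, 9 pathway genes were higher and 27 lower of 116 (31.0%, against 19.2% of all genes), 4 and 24 without untreated WT library 3. Chaperones were 0 higher and 9 lower of 18 (median -0.214), with Pdia6, a disulphide isomerase, at 162 ± 11.6 against 275 ± 7.54 CPM (-0.79 ± 0.071, adjusted p = 9.06e-14) and Sdf2l1, a BiP cofactor, at -0.72 ± 0.13. Amino acid genes were 3 higher and 3 lower of 17 and synthetases 1 higher and 1 lower of 13. Sel1l, the scaffold of the HRD1 ligase, was at -0.91 ± 0.14 and Nupr1 at -1.58 ± 0.13. Chromosome medians, such as that of chromosome 12 given for Dnajb9, were set beside the members alone. The part of such chromosome-wide shifts in the differences of these pathway genes was not tested. Treated, 23 were higher and 29 lower (44.8%, against 32.0% of all genes), 13 and 28 without treated 1CF10 library 3, and 14 higher without treated WT library 2 or 3. Chaperones were then 2 higher and 8 lower of 18 (median -0.213), and amino acid genes 5 higher and 4 lower, 3 and 3 without treated 1CF10 library 3.

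In untreated 2CD7 against WT the pathway count was 3 higher and 2 lower (4.31%, against 3.51% of all genes), 1 and 2 without untreated 2CD7 library 2, 4 and 1 without untreated 2CD7 library 3, 1 and 1 without untreated WT library 3, and 6 and 5 with the groups alone. The 3 higher were the amino acid genes Slc1a5, Psat1 and Shmt2, and 0 chaperones were called (4 at an unadjusted p below 0.05, 0 with DESeq2 and limma-voom, and 1 with the groups alone). Treated, 17 were higher and 10 lower (23.3%, against 14.0% of all genes), 12 and 6 without treated 2CD7 library 1, 11 and 7 without treated 2CD7 library 2, and 10 and 7 without treated WT library 3. Amino acid genes were 8 higher and 0 lower of 17 (median 0.364), 6 to 8 without any 1 library. Mthfd2, a mitochondrial enzyme of folate metabolism, was at 172 ± 16.97 against 114 ± 22.9 CPM (0.55 ± 0.094, adjusted p = 1.03e-05), and Slc1a4, a neutral amino acid transporter, at 16.6 ± 1.66 against 8.34 ± 1.98 CPM (0.94 ± 0.22, adjusted p = 0.00135). Synthetases were 4 higher and 0 lower of 13, 1 or 2 without treated 2CD7 library 1 or 2 or any 1 treated WT library. Chaperones were 1 higher (Ero1l) and 2 lower (Sil1 and Ppib), with 0 called without treated 2CD7 library 1 or treated WT library 3. The treated WT libraries here are those in which Mthfd2 fell after IFN beta, a call lost without treated WT library 2.

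Between the untreated clones, 2CD7 was higher in 23 and lower in 4 (23.3%, against 13.4% of all genes), with 7 chaperones higher and 0 lower (median 0.183), 4 without untreated 2CD7 library 1. Pdia6 was at 0.67 ± 0.071 and Dnajc3 at 0.59 ± 0.086 there, and Ern1, the gene of IRE1, was lower in 2CD7 (7.74 ± 1.96 against 14.9 ± 1.64 CPM, -0.91 ± 0.24), a call lost without untreated 2CD7 library 3 (adjusted p = 0.0586). The part of chromosome-wide shifts in these differences was not tested either.

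**Figure D4:**
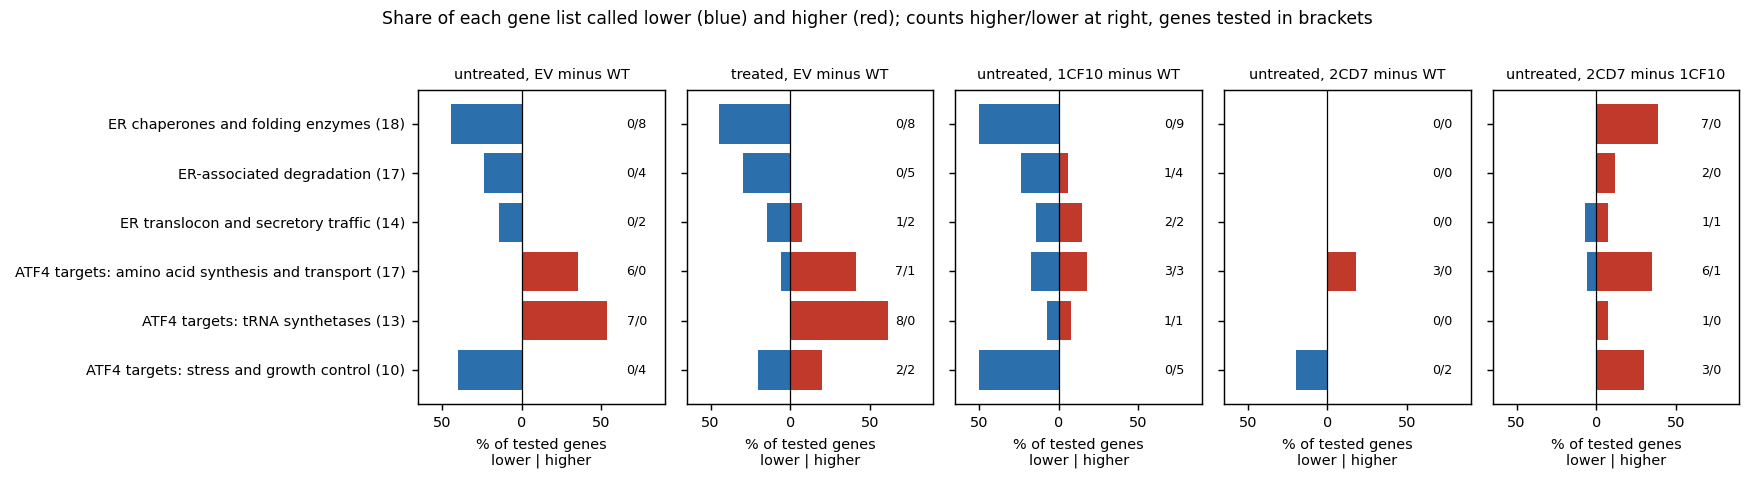
Percent of the tested genes of 6 pathway lists that were called lower (blue, leftward) and higher (red, rightward) in 5 comparisons of lines, with the counts beside each bar. In EV against WT chaperones go left (8 of 18) and amino acid and synthetase genes right, and in 1CF10 against WT 9 of 18 chaperones go left.

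Across the 24 libraries the members were compared by Pearson's r of log2 CPM, in an ER group (Hspa5, Hsp90b1, Dnajb9, Herpud1 and Xbp1) and an ATF4 group (Atf4, Chac1, Trib3 and Asns). Libraries of a group of samples share a culture line and a treatment, so the r of the deviations from the means of those groups is given too. All 10 pairs of ER genes were positive (0.492 to 0.857), 8 of them in the deviations (-0.0739 to 0.787). All 6 pairs of ATF4 genes were positive (0.365 to 0.712), 4 of them in the deviations (-0.109 to 0.508). Of the 20 pairs between the ER and ATF4 genes 14 were negative and 6 positive, from -0.615 for Hsp90b1 and Trib3 (-0.516 in the deviations) to 0.439 for Herpud1 and Asns (0.427). In the deviations 4 of those 20 were negative and 16 positive, and Xbp1 with Chac1 went from -0.521 to 0.198. Hsp90b1 and Xbp1 had 0.857, and 0.127 in the deviations. Hspa5 and Herpud1 had 0.793 and kept 0.787. Atf4 had 0.709 with Chac1 (-0.109 in the deviations) and 0.712 with Asns (0.508). Ddit3 was positive with all 5 ER genes (0.219 to 0.656, and -0.0732 to 0.271 in the deviations) and negative with all 4 ATF4 genes (-0.453 to -0.173, and -0.339 to 0.299). The Hsp90b1 and Xbp1 pair thus varied together between groups and little within them, while Hspa5 and Herpud1 varied together in both.

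**Figure D5:**
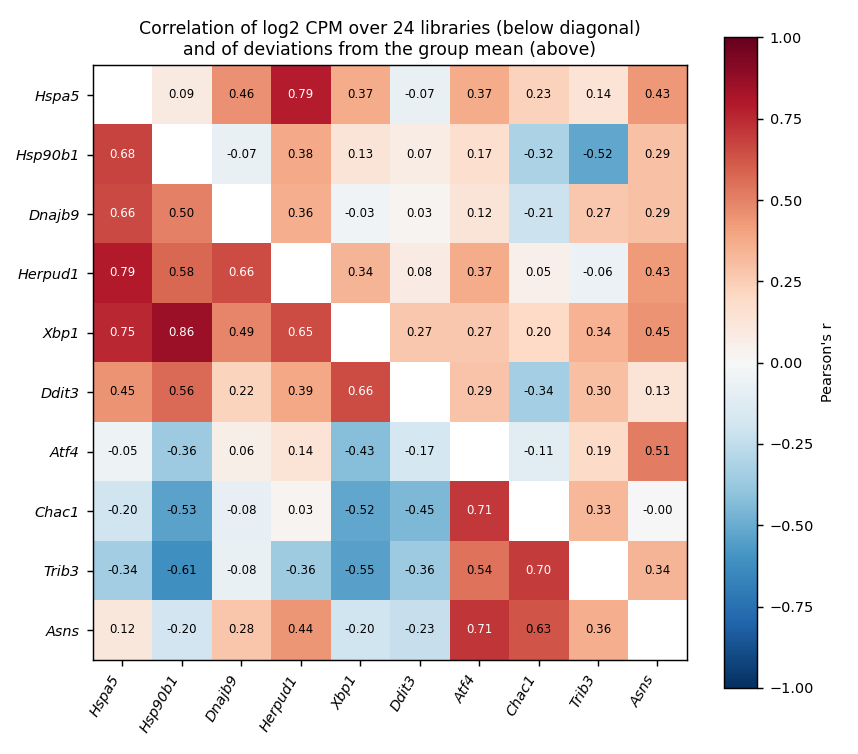
Pearson's r between members over 24 libraries below the diagonal and of deviations from the group mean above it, in red for positive and blue for negative values. Hsp90b1 with Xbp1 is at 0.857 below and 0.127 above the diagonal, and Hspa5 with Herpud1 at 0.793 and 0.787.

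The genes most like each member were sought among 6993 genes with an average log2 CPM of at least 4, over the same 24 libraries. Each r is followed by that of the deviations. For Hspa5 they were Creld2 (0.813 and 0.797) and Manf (0.792 and 0.664), which encode proteins of the ER. For Atf4 they were Hsp90aa1 (0.85 and 0.822) and Odc1 (0.826 and 0.561), and for Chac1 Hspa9 (0.903 and 0.407) and Tcof1 (0.897 and 0.48). The highest r was that of Hsp90b1 with Rnf128 (0.933 and 0.266), next to S100a6 (0.918 and 0.638). Xbp1 was closest to Ubxn1 (0.883 and 0.132) and Mgat3 (0.881 and 0.163), and Herpud1 to Banp (0.84 and 0.546) and Cdc42ep1 (0.83 and 0.184). Trib3 was closest to Angptl2 (0.822 and 0.7) and Elp2 (0.785 and 0.496), and Asns to Ska1 (0.851 and 0.463) and Fgfbp1 (0.841 and 0.71). Dnajb9 was closest to Perp (0.809 and 0.776) and Aph1a (0.764 and 0.794), and Ddit3 to Atp6v1b2 (0.739 and 0.489) and Zmym5 (0.703 and 0.442), the latter the lowest r of the 20. For Rnf128, Ubxn1, Mgat3 and Cdc42ep1 the likeness lay mostly between the groups of samples. With 6993 genes searched, a high r is found for any gene with strong line differences, and nothing was tested.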

How the data were processed

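Total RNA of 24 libraries was profiled by 3′ RNA-seq with an index of 8 bp and a UMI of 10 bp, per the labels' protocols. The deposited counts are UMI counts per gene that the authors made without normalization. Per the submitters' processing notes, cutadapt 3.0, limma 3.50.0, edgeR 3.36.0 and R in versions 4.1.2 and 3.6.2 were used with the builds mm10 and GRCm38, and no aligner was named in the sources used here. Groups follow the labelled line and treatment. Genes were filtered with filterByExpr (minimum count 10, minimum total 15), which kept 11698 genes holding 99.5% to 99.6% of UMIs, and all 24 libraries were fitted on 8 group means with edgeR 4.0.16 in R 4.3.3 (TMM, robust quasi-likelihood F test, Benjamini-Hochberg over all tested genes). An SE is the log2 difference divided by the square root of F. Counts were also simulated for the response of EV over 11698 genes, with the spread between libraries estimated from the data. There 48.53% of 1.5-fold, 74.24% of 2-fold and 100% of 4-fold changes were called. The changed genes were drawn over all levels, so these shares do not describe low genes in particular.

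Other settings were RLE size factors, DESeq2 1.42.0, limma-voom (3.58.1), no filter, a minimum count of 30, a block for the replicate number, thinning to 1972192 UMIs, the compared groups alone and leaving out each library. The 10 members were always named. Of 9 pathway lists (125 genes, 116 tested) and a heat shock list, at most the 2 called genes of largest size per list and comparison, with an average log2 CPM of at least 1, could be named, and per member the 2 genes of highest r (prior count 2). The name of 1 listed gene, Mars1, was matched to the table after the first run. Members and lists were chosen with earlier results of these data known. Comparisons against the same line share its libraries.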

Additional observations from a re-analysis of the deposited data

Results flagged for a closer look

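The response to IFN beta in the clones minus that in the controls differed by the test of that difference for 2 members and 7 other pathway genes. On the log2 scale Herpud1 was at 0.7829, Xbp1 at 0.4228, Ddit4 at 0.7388, Slc1a4 at 0.7121, Creb3l2 at 0.4685 and Mthfd2 at 0.3486, and Eif2ak2 at -2.453, Atf3 at -1.211 and Jdp2 at -0.7814. Slc1a4 lost its call in 16 of 31 other settings (adjusted p up to 0.19), Ddit4 without treated 1CF10 library 3, untreated 1CF10 library 2, treated 2CD7 library 3 or treated EV library 3 (up to 0.12), Creb3l2 when thinned and without treated 1CF10 library 3 (up to 0.117), and Mthfd2 without treated WT library 2 (0.0594). Between the controls, the response of EV minus that of WT was 0.5399 for Ssr1, lost in 9 of 20 other settings, each of them limma-voom or the leaving out of 1 library (adjusted p up to 0.186).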

How the results depend on the processing

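Of 190 member differences 55 were called, and over 803 recomputed values of those 55 the direction was reversed in 0 and the call lost in 85. DESeq2 left 11 member or named pathway values without an adjusted p. The member count for IFN beta in WT was 1 with DESeq2 or the compared groups alone (2 in the report), and for the EV minus WT response 1 with no filter (0 in the report). For untreated 2CD7 minus WT it was 0 with RLE, DESeq2, limma-voom or no filter (1 in the report), and for treated 1CF10 minus WT 2 with DESeq2 or the groups alone (4 in the report). Leaving out 1 library gave 1 to 2 for IFN beta in WT, 2 to 3 in EV, 0 to 0 in 1CF10, 0 to 0 in 2CD7, 2 to 2 for clones minus controls, 0 to 1 for the EV minus WT response and 0 to 0 for the 2CD7 minus 1CF10 response. Untreated, it gave 4 to 6 (EV minus WT), 2 to 3 (1CF10 minus EV), 2 to 3 (2CD7 minus EV), 3 to 5 (1CF10 minus WT), 0 to 0 (2CD7 minus WT) and 3 to 4 (2CD7 minus 1CF10). Treated, it gave 6 to 8, 2 to 5, 6 to 7, 2 to 3, 2 to 2 and 2 to 3 in the same order. A group left with 2 libraries uses the spread pooled over groups. Causes were not tested.

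Replicate numbers are shared between groups by the labels, and no pairing was assumed in the main fit. Same-numbered libraries correlated at 0.0192 on average (-0.153 to 0.151, 84 pairs) and other pairs at -0.00961. For 14 of 24 libraries the closest number was their own, more than an even share among the 3 numbers. Whether libraries of the same number share an effect was not tested. With the replicate block the treated 2CD7 minus 1CF10 count was 5 (3 in the report), Hspa5 passed under it in 8 comparisons in which it did not in the report, and none of the 55 calls was lost under it.

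Over all genes, untreated 2CD7 minus WT gave 411 calls, 255 with DESeq2, 627 with the groups alone and 167 to 416 without 1 library. The EV minus WT response gave 5, 76 with no filter, 30 with the groups alone, 14 with the block, 3 with a minimum count of 30, 1 with limma-voom and 0 to 24 without 1 library. IFN beta in 2CD7 gave 0, and 1 with limma-voom. The 2CD7 minus 1CF10 response gave 0, and 1 with no filter. Clones minus controls gave 183 higher and 430 lower, against 89 and 389 with DESeq2. Depth limits the low genes most: Dnajb9, Chac1, Trib3 and Ddit3 had at most 30.1 CPM.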
